A study of Homo sapiens with 18 samples.

Results

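The 10 genes of the MYC network described here were read out of a table of raw read counts for 58735 genes, by matching the Ensembl identifiers to GENCODE 29. They are the MYC family (MYC, MYCN and MYCL), the shared partner MAX, the MAX-binding repressors MXD1, MXD3, MXD4, MXI1 and MNT, and MLX, which pairs with MNT and some MXD proteins. All 10 were abundant enough to test, among 23231 genes that passed the filter on low counts. The cells were SH-SY5Y, an established human neuroblastoma line without MYCN amplification, labelled wild type and kept for 7 days in 10 µM all-trans retinoic acid, which makes them neuron-like. For 15 min before RNA extraction they received 193 nM morphine, 169 nM metamorphine, 200 nM TRV130 (an opioid receptor agonist), 200 nM beta-endorphin, 200 nM naloxone (an opioid receptor antagonist) or water (Control), with 3 libraries in each of these 6 groups. Every group is the same single line after the same retinoic acid treatment, so there is no undifferentiated sample to compare with. Whether replicate libraries stem from separate cultures is not labelled, so p-values measure only the spread among these 18 libraries, and that spread may be technical.

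MYC, MYCN and MYCL are basic helix-loop-helix leucine zipper transcription factors that bind the E-box CACGTG only as a pair with MAX, and their activated targets serve ribosome production, nucleotide synthesis and cell growth. MXD proteins, MXI1 and MNT compete for MAX and, through SIN3 corepressors and histone deacetylases, repress promoters that MYC proteins activate. MLX links this network to MLXIP and MLXIPL, which respond to glucose metabolites and activate TXNIP. In neuroblastoma, amplified MYCN marks aggressive tumours, while many lines without amplification express MYC instead, and retinoic acid is known to lower MYCN as such cells differentiate.

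Total counts ran from 21211449 to 33123855 per library. Each library name ends in 1 of 3 codes, called A (7 libraries), B (6) and C (5) here, whose meaning the labels do not give, and for TRV130 there are 2 code A libraries, 1 code B library and no code C library. Of the 18 libraries, 16 were most like a library of the same code. The mitochondrial share of counts was 4.66% to 9.47% in code C, 8.02% to 15.7% in code B and 6.15% to 17.7% in code A. Control 1 held 20888 reads in genes whose median count over the libraries was 0, while Naloxone 1 held 3074, Naloxone 2 held 1495 and the other libraries 276 to 1052. Noradrenergic neuroblastoma markers summed to between 4095.2 and 5618.0 CPM (read counts scaled to library size by TMM) per library, with all 8 detected. Markers of other cells were low apart from 3 fibroblast genes (COL3A1, DCN and LUM): the 5 Schwann cell markers summed to at most 10.7 CPM, the 5 immune markers to at most 12.7 the 6 epithelial markers to at most 15.1 and the 3 endothelial markers to at most 5.64, and all 4 of these highest sums were in Control 1. The 5 fibroblast markers summed to between 93.3 and 176.0 CPM. The immune marker PTPRC was at 0 in 12 of 18 libraries and the endothelial marker PECAM1 in 14 of 18. Other markers of these lists, CD68, CD14, CD79A and VWF, passed the filter on low counts. The Schwann cell marker SOX10 was at 0 in 0 of 18 libraries.

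Promoter windows from RefSeq (GRCh38.p14, 250 bases before to 50 after a start) were available for 9 of the 10 genes, MYC being the exception. They are shown because E-boxes are the sites at which this network acts on its own members and its targets. The windows of MNT, MLX and MXD4 each held 1 CACGTG (a palindrome, so both strands read alike), that is 3 of the 12 windows of these genes (MAX and MXI1 have several), against 7.26% of 35116 windows of all genes. The MYCN window held 1 E2F motif (TTTGGCGC or TTTCCCGC, either strand), which 2.27% of all windows hold, and E2F factors are known activators of MYCN. For MNT, MLX and MXD4 the part of the window upstream of the GENCODE gene is printed, and for MYCN the part upstream of the RefSeq start, each 5′ to 3′ on the gene's strand, with the motif in capitals. MNT lay at chr17:2401119-2401310 (minus strand), MLX at chr17:42566850-42567067 (plus), MXD4 at chr4:2262295-2262359 (minus) and MYCN at chr2:15940300-15940549 (plus).
MNT: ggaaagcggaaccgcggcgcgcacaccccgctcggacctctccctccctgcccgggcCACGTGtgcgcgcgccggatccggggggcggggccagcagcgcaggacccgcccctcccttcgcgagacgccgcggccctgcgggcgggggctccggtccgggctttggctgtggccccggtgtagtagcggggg
MLX: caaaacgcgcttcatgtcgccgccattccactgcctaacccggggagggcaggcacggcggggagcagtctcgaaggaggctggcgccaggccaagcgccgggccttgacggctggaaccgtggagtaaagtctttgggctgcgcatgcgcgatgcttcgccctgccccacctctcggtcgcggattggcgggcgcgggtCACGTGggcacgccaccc
MXD4: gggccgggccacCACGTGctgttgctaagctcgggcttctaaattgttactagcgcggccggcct
MYCN: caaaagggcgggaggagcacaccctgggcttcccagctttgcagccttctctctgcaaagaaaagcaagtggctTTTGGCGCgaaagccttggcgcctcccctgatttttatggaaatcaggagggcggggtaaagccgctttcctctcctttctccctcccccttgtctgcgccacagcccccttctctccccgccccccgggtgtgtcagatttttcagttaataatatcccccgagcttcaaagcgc
These are matches of letters only, and the absence of a match in the other windows says nothing of the factors.

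The repressors of the network were far more abundant than the MYC family. On a per-length scale (CPM per kilobase of merged exon), the mean level over 18 libraries was highest for MXD3 at 33.6 ± 9.33 (SD), followed by MXD4 at 21.9 ± 1.29, MLX at 15.2 ± 3.12, MXI1 at 12.5 ± 3.22 and MAX at 12.2 ± 2.26. Below them came MNT at 6.63 ± 1.81, MXD1 at 4.0 ± 0.724, MYC at 1.82 ± 0.841, MYCN at 1.78 ± 0.294 and MYCL at 0.282 ± 0.0841 CPM per kb. Most neighbours in this order kept it library by library: MXD3 lay above MXD4, MXD4 above MLX, MAX above MNT, MXD1 above MYC and MYCN above MYCL in 18 of 18 libraries. The order was loose between MXI1 and MAX, where MXI1 was above in 11 of 18, and between MYC and MYCN, where MYC was above in 7 of 18. The level of MXD3, a repressor expressed in S phase, is uncertain because 18% of its exon bases are shared with RAB24 and 22.5% with PRELID1, both of which were abundant (means of 59.2 and 159.8 CPM), and the counts carry no strand.

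**Figure D1:**
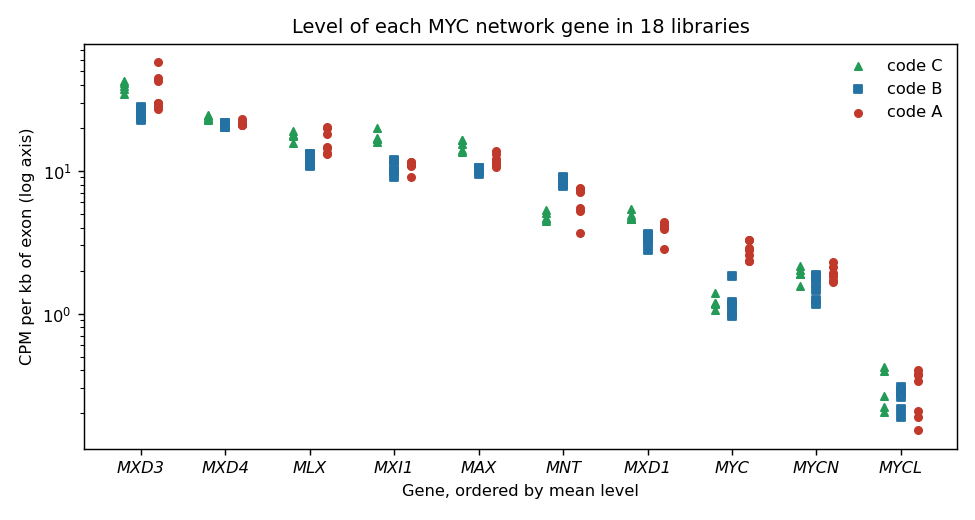
CPM per kb of merged exon (log axis) of each network gene in each of the 18 libraries, with genes ordered by mean level and the libraries of codes C, B and A side by side. MXD3 and MXD4 lie highest, MYC, MYCN and MYCL lowest, and the code A libraries of MYC (2.32 to 3.29) stand above those of codes C and B (0.968 to 1.82).

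Summed over genes, the 5 repressors stood at 78.6 ± 10.2 CPM per kb and the 3 MYC family genes at 3.88 ± 1.04 (SD, n = 18). The ratio of the sums was 21.5 on average and ran from 12.2 (Morphine 1) to 28.9 (Metamorphine 3). The log2 difference was 4.37, positive in 18 of 18 libraries (two-sided paired permutation test over libraries, p = 2e-05, the smallest that 100000 resamples give). Leaving MXD3 out of the sum, an alternative added after its overlaps were known, gave 3.58, and leaving MXD4 out gave 3.90. By code the ratio averaged 26.5 ± 2.31 in code C, 23.3 ± 3.46 in code B and 16.3 ± 3.73 in code A.

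MYCN and MYC stood at similar levels in this line, with MYC above MYCN in every code A library and MYCN above MYC in every code C library. MYCN (chr2:15940564-15947007, plus strand) had 69 to 159 reads per library and MYC (chr8:127735434-127741434, plus strand) had 75 to 307. Over all 18 libraries the log2 level per length of MYCN minus that of MYC was 0.09 ± 0.57 (SD), above 0 in 11 of 18 (paired permutation test, two-sided p = 0.489). In the same permutation test, the difference was -0.25 with the longest transcript as length (p = 0.0808) and -0.11 with no division by length (p = 0.407), so its direction is set by the choice of length.

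Split by code, MYCN minus MYC was 0.66 ± 0.20 in code C (above 0 in 5 of 5 libraries), 0.35 ± 0.27 in code B (6 of 6) and -0.53 ± 0.20 in code A (0 of 7). With the longest transcript as length it was 0.32 in code C (5 of 5), 0.01 in code B (3 of 6) and -0.87 in code A (0 of 7), and with no division by length 0.45 (5 of 5), 0.14 (4 of 6) and -0.74 (0 of 7) in the same order. The signs in codes C and A thus held under the 3 choices of length tried, and that in code B did not hold in every library. In levels, MYCN had 1.90 ± 0.227 CPM per kb in code C, 1.53 ± 0.287 in code B and 1.91 ± 0.223 in code A, whereas MYC had 1.20 ± 0.121 in code C, 1.21 ± 0.310 in code B and 2.77 ± 0.400 in code A. MYCN shares 98 exon bases (3.77%) with its antisense gene MYCNOS, which averaged 1.16 CPM, and the 2 cannot be separated over those bases.

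**Figure D2:**
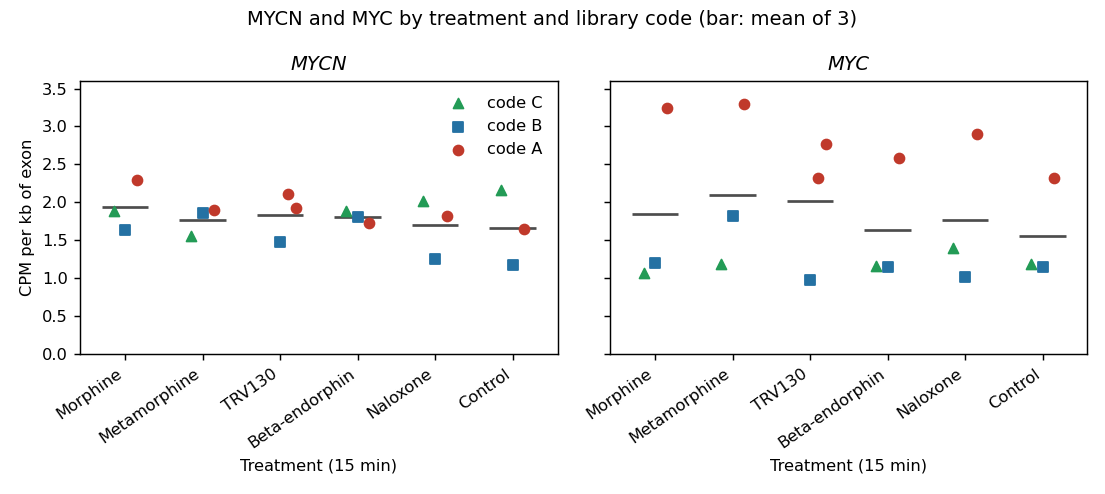
CPM per kb of merged exon of MYCN (left) and MYC (right) by treatment, 1 point per library with its code, and a bar at the mean of 3 libraries. In every group the MYC level of the code A libraries is highest, while no code separates the MYCN libraries.

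Whether a 15 min exposure to an opioid ligand moved the network was asked by comparing each compound with Control. None of the 10 genes was called (edgeR's quasi-likelihood test, Benjamini-Hochberg adjusted p under 0.05) for morphine, metamorphine, TRV130, beta-endorphin, naloxone, the mean of the 5 compounds or any difference among the 6 groups. In each of these comparisons 0.00% of the 23231 genes were called. At an unadjusted p under 0.05, the comparisons with Control gave 944 genes for morphine, 1820 for metamorphine, 430 for TRV130, 2198 for beta-endorphin, 1545 for naloxone and 2654 for the mean, and 565 genes differed among the 6 groups. With library code as a block, these counts were 3426, 5494, 1037, 6451, 5234 and 6888 in the same order, and 2215 among the 6 groups. DESeq2 called no network gene either. In bulk RNA, a change in the number of expressing cells and a change in RNA per cell cannot be told apart.

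MYC, a gene that many stimuli induce within an hour, varied far more within a group than between groups. It measured 9.74, 3.61 and 3.20 CPM in the morphine libraries, 9.88, 5.46 and 3.55 in metamorphine, 6.97, 8.31 and 2.90 in TRV130, 7.73, 3.43 and 3.47 in beta-endorphin, 8.70, 3.03 and 4.19 in naloxone, and 6.95, 3.41 and 3.55 in Control. The high values were the code A libraries in every group, and all 5 compound groups overlapped Control. The log2 fold change against Control was 0.25 for morphine, 0.45 for metamorphine, 0.39 for TRV130, 0.08 for beta-endorphin and 0.20 for naloxone, with standard errors of 0.55 to 0.56 and adjusted p from 0.760 to 1.00. For the mean of the 5 compounds it was 0.27, with a 95% interval of -0.66 to 1.20. With library code as a block the standard error for each compound was 0.20, metamorphine stood at 0.42 (adjusted p = 0.209) and TRV130 at -0.08 (adjusted p = 0.983). Morphine and metamorphine were given at different doses, so their values stand side by side without a comparison.

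MYCN measured 5.96, 4.25 and 4.89 CPM in the morphine libraries, 4.93, 4.85 and 4.02 in metamorphine, 5.48, 5.01 and 3.82 in TRV130, 4.47, 4.72 and 4.88 in beta-endorphin, 4.73, 3.25 and 5.24 in naloxone, and 4.29, 3.05 and 5.62 in Control. All groups overlapped. Its log2 fold changes were 0.22 for morphine, 0.09 for metamorphine, 0.14 for TRV130, 0.12 for beta-endorphin and 0.03 for naloxone (standard error 0.25, adjusted p from 0.841 to 1.00). The mean of the 5 compounds gave 0.12, with an interval of -0.30 to 0.54. These fits leave out the library code, so any difference between codes enters their standard errors. Set against the Control library of their own code, compound libraries were below Control in 4 of 4 cases in code C (median log2 difference -0.20), above in 5 of 5 in code B (0.46) and above in 6 of 6 in code A (0.21). These differences rest on a single Control library per code and were not tested against each other.

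MYCL, whose product is known from neuroendocrine tumours, was near the filter, with 17 to 61 reads per library. It averaged 1.30 ± 0.528 CPM in morphine, 1.80 ± 0.228 in metamorphine, 1.03 ± 0.0675 in TRV130, 1.61 ± 0.369 in beta-endorphin, 1.71 ± 0.407 in naloxone and 1.10 ± 0.325 in Control (SD, n = 3 each). The mean of the compounds against Control, in the fit that leaves out the library code, was 0.40 on the log2 scale (interval -0.17 to 0.98, adjusted p = 0.508). The 3 values of metamorphine (1.87, 1.55 and 1.99) lay above the Control values (0.767, 1.42 and 1.12), a separation that the test across all genes did not call.

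Among MAX and its repressor partners, MXD3 had the lowest fold change. MXD3 measured 147.2, 142.2 and 202.5 CPM in morphine, 139.7, 132.8 and 193.2 in metamorphine, 228.9, 217.6 and 122.7 in TRV130, 153.0, 120.5 and 177.0 in beta-endorphin, 153.1, 117.7 and 210.9 in naloxone, and 295.7, 143.3 and 217.8 in Control. Compound libraries lay below the Control library of their code in 15 of 15 cases, with log2 differences of -0.30 to -0.05 in code C, -0.28 to -0.01 in code B and -1.08 to -0.37 in code A. The 15 cases share 3 Control libraries, and the highest value belongs to Control 1, the library with the most reads in genes otherwise at 0. Its part in the result was not tested beyond leaving it out, which gave a mean-of-compounds fold change of -0.16, against -0.42 with it (interval -0.90 to 0.05, adjusted p = 0.451). With library code as a block the value was -0.40 (unadjusted p = 0.00811, adjusted p = 0.107).

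For the other genes the mean of the 5 compounds against Control was 0.23 for MXD1 (a repressor induced on differentiation), 0.27 for MNT (the most widely expressed of the repressors), 0.11 for MXI1, 0.00 for MXD4, -0.17 for MAX and -0.23 for MLX on the log2 scale, with adjusted p from 0.574 to 0.986. These values rest on single Control libraries: for MNT the value was 0.03 without Control 1, 0.75 without Control 2 and 0.13 without Control 3. MXD4 was the steadiest gene of the network, at 142.7 to 172.1 CPM over all libraries and an interval of -0.21 to 0.22. MXD1 stood above the Control library of its code in 1 of 4 cases in code C, 5 of 5 in code B and 6 of 6 in code A, and Control 1, at 18.1 CPM, was its lowest code A library. With the code as a block MXD1 was at 0.28 (adjusted p = 0.111), and no network gene was called, with 0.00430% of all genes called for the mean of the compounds.

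**Figure D3:**
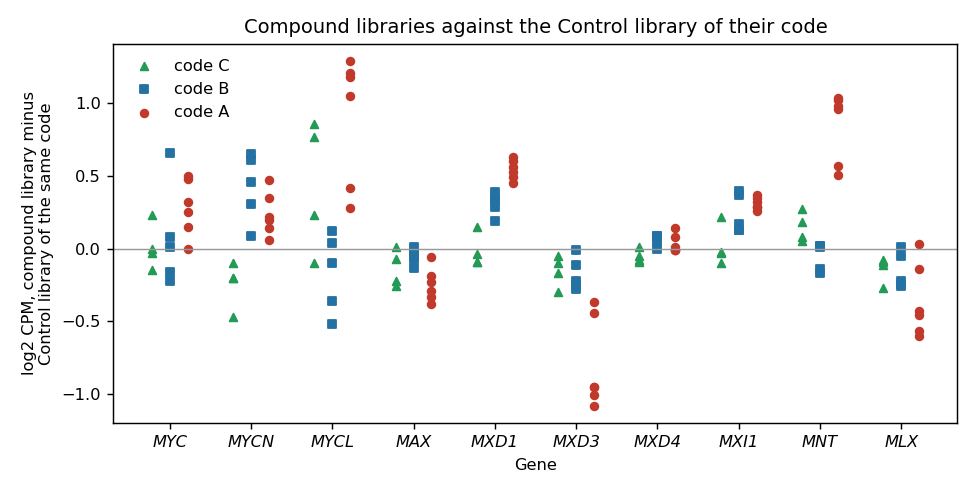
Log2 CPM of each compound library minus that of the Control library with the same code, for each network gene, with codes C, B and A side by side. MXD3 is below 0 in all 15 cases, and MYCN is below 0 in code C and above 0 in codes B and A.

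For any difference among the 3 codes, 7 of the 10 network genes (not MYCN, MYCL and MXD4) were called. Of all genes, 57.8% were called in that test, so such calls were not particular to the network. With the groups in the model, code C against code B called 7 of the 10 genes (6 higher and 1 lower), where 54.8% of all genes were called (26.9% higher and 27.8% lower). Code C against code A called 5 (3 higher and 2 lower), where 33.2% were called, and code B against code A called 5 (1 higher and 4 lower), where 26.9% were called. These counts are read against shares of all genes that are themselves large. For code B against code A the count fell to 2 without TRV130 replicate 3 and to 1 without the TRV130 group or without Control 1, Naloxone 1 and Naloxone 2, and MYC was the gene that stayed.

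MYC was lower in codes C and B than in code A. Its lowest, median and highest levels were 3.20, 3.55 and 4.19 CPM in code C, 2.90, 3.42 and 5.46 in code B, and 6.95, 8.31 and 9.88 in code A. The 7 code A libraries lay above all 11 others, and within each of the 6 groups the code A value was 1.81 to 2.87 times the code B value. The log2 fold change was -1.26 ± 0.15 (SE) for code C against code A (adjusted p = 8.76e-05) and -1.23 ± 0.14 for code B against code A (adjusted p = 0.000108). Between codes C and B it was -0.03 (interval -0.35 to 0.29, adjusted p = 0.880), with the sign turning under other settings. MYC was called in the first 2 of these comparisons in every alternative run, with values from -1.34 to -1.17 and from -1.35 to -1.18 when 1 library was left out.

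The other family members were not called in any comparison of 2 codes. MYCN gave 0.33 for code C against code B (adjusted p = 0.0885), 0.01 for code C against code A (0.967) and -0.32 for code B against code A (0.109) on the log2 scale. MYCL gave 0.11, -0.09 and -0.21 for the same comparisons (adjusted p from 0.510 to 0.790). For code B against code A both genes thus had the sign of MYC. Within the groups, the code A value of MYCN was 0.946 to 1.46 times the code B value. The neighbours of MYCN on chromosome 2 did not move as a group: DDX1, a helicase gene often co-amplified with MYCN, was higher in code C than in code B (0.65), while NBAS was lower (-0.29).

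**Figure D4:**
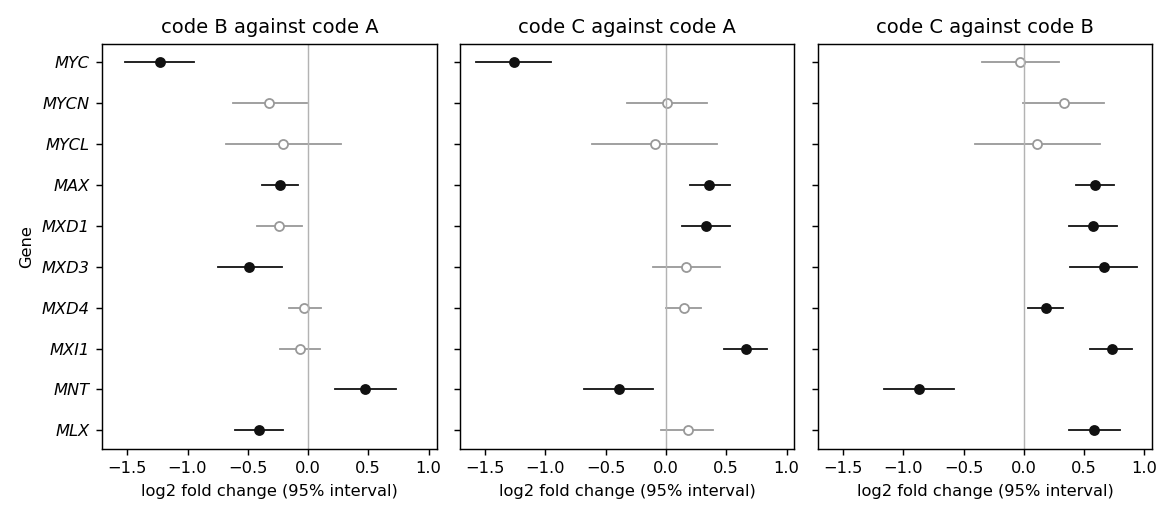
Log2 fold change with its 95% interval for each network gene in the 3 comparisons of library codes (treatment group in the model). Filled black points were called at an adjusted p under 0.05 and open grey points were not. MYC is near -1.2 in both comparisons with code A and near 0 between codes C and B, and MNT lies opposite to MAX, MXD3 and MLX between codes C and B.

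MAX and MLX, the obligate partners, were lowest in code B. MAX had lowest, median and highest levels of 60.4, 68.6 and 72.9 CPM in code C, 42.3, 45.0 and 46.5 in code B, and 46.8, 52.2 and 61.1 in code A. No code B library reached a library of another code. The log2 fold change of MAX was 0.59 for code C against code B (adjusted p = 2.12e-05), 0.36 for code C against code A (0.00272) and -0.23 for code B against code A (0.0273), the last of which was lost with no low-count filter (-0.24, 0.127) and in 6 of the 18 fits that left out 1 library. MLX likewise had 66.8, 75.6 and 80.3 CPM in code C, 46.2, 50.6 and 55.6 in code B, and 55.8, 62.6 and 86.4 in code A. Its fold change was 0.58 for code C against code B (adjusted p = 0.000195) and -0.41 for code B against code A (0.00756), and code C against code A was not called (0.18, 0.200). A share of 18.1% of the exon bases of MLX also belongs to PSMC3IP on the other strand, which averaged 44.4 CPM.

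MXI1 and MXD1, repressors that bind SIN3 corepressors, were highest in code C, and no other library reached their code C levels. MXI1 had 73.0, 77.3 and 91.5 CPM (lowest, median and highest) in code C, 41.7, 46.2 and 54.9 in code B, and 41.5, 50.8 and 53.5 in code A. Its fold change was 0.73 for code C against code B (adjusted p = 1.21e-05), 0.66 for code C against code A (0.000138) and -0.07 for code B against code A (0.544). MXD1 had 29.1, 30.2 and 34.5 CPM in code C, 17.6, 21.8 and 23.1 in code B, and 18.1, 26.1 and 28.0 in code A, with fold changes of 0.57 (adjusted p = 0.000121), 0.33 (0.0136) and -0.24 (0.0525), the second of which was not called without Control 3 (0.25, 0.0562).

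MNT moved the other way. It had 38.7, 40.9 and 46.6 CPM in code C, 68.7, 77.4 and 78.3 in code B, and 32.0, 62.2 and 65.9 in code A, so that every code B library lay above all others. Its fold change was -0.87 for code C against code B (adjusted p = 8.52e-05), -0.39 for code C against code A (0.0349) and 0.47 for code B against code A (0.0119). The call of code C against code A was lost in 8 of the 18 fits that left out 1 library (Morphine 1, Metamorphine 1 or 3, TRV130 2, beta-endorphin 1 or 3, Naloxone 1 or 3), with values of -0.37 to -0.29, and that of code B against code A without TRV130 replicate 3 (0.40). MXD3 gave 0.66 for code C against code B (0.000599), 0.17 for code C against code A (0.343) and -0.49 for code B against code A (0.0112), not called without TRV130 replicate 3 (-0.39, 0.0634). MXD4, the steadiest gene, gave 0.18 for code C against code B (0.0387), a call that ended with RLE scaling (0.16, adjusted p = 0.0578), with no low-count filter (0.24, 0.114), without TRV130 (0.17, 0.0638) and in 6 of the 18 fits that left out 1 library. For MNT, 12.2% of the exon bases overlap the antisense gene AC006435.1.

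Code A was not uniform for some of these genes. Its Control library and both TRV130 libraries had 217.6 to 295.7 CPM of MXD3, against 139.7 to 153.1 in the other 4 code A libraries. For MLX the same split read 76.8 to 86.4 against 55.8 to 62.6 CPM, for MNT 32.0 to 47.6 against 62.2 to 65.9 CPM, and for MYCL 0.767 to 1.06 against 1.70 to 2.03 CPM. The ranges did not overlap for any of the 4 genes, nor for MAX (53.3 to 61.1 against 46.8 to 52.2 CPM). They overlapped for MXD1 (18.1 to 28.0 against 24.8 to 27.4), MXD4 (148.6 to 163.7 against 147.3 to 149.7) and MYCN (4.29 to 5.48 against 4.47 to 5.96). For MXI1 they met at 50.8 CPM. The split was read off these same values, so it is no test, and its share over all genes was not counted. Control 1 and the 2 TRV130 libraries of code A also had the highest mitochondrial shares of that code (13.3%, 17.7% and 15.6%), and the part of that in the split was not tested. For MYC the split was not complete. Control 1 (6.95 CPM) and TRV130 1 (6.97) lay below the other 4 libraries (7.73 to 9.88 CPM), and TRV130 2 (8.31) lay among them.

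Gene length and base composition moved with the codes. Over 14955 protein-coding genes, Spearman's rho of the log2 fold change with transcript length was -0.38 for code C against code B, -0.18 for code C against code A and 0.42 for code B against code A, and with GC content it was -0.27, -0.45 and -0.06. These are correlations across genes, which are not independent replicates. Protein-coding genes were also split into 4 equal classes by length or by GC content. Genes in the length class of MYC, MAX, MLX, MYCN and MXI1 (2287 to 3558 bases, as for MYCL) had a median of 0.14 for code C against code B, 0.03 for code C against code A and -0.11 for code B against code A, and genes in the GC class of MYC (49.3% to 57.4%) had medians of -0.08, -0.10 and -0.05. The fold changes of MYC against code A were -1.26 and -1.23. A class median does not show how far single genes of the class spread. MNT and MXD3 shared the highest GC class, with medians of -0.18, -0.23 and -0.06. By length, the class of MNT had medians of -0.03, -0.00 and 0.02, and that of MXD3, the shortest, 0.44, 0.15 and -0.28. The 2 classes of MXD3 thus had medians of opposite sign for code C against code B and for code C against code A. For MXD1, the longest length class had medians of -0.23, -0.06 and 0.17, and its GC class 0.10, 0.08 and -0.02. The part of length and composition in the code differences was not tested.

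Established MYC targets were then set beside the MYC differences. Of 30 MYC-activated targets, 29 were tested: 19 were higher and 4 lower in code C than in code B (median log2 fold change 0.55, with 26.9% of all genes higher and 27.8% lower), 3 higher and 8 lower in code C than in code A (0.01, with 16.1% and 17.1%), and 0 higher and 23 lower in code B than in code A (-0.44, with 11.5% and 15.5%). Over all tested genes the medians were -0.04, -0.02 and 0.02. Over the length classes of protein-coding genes they ran from 0.44, 0.15 and -0.28 in the shortest class to -0.23, -0.06 and 0.17 in the longest. The part of gene length in the shifts of the targets was not tested. The activated targets were mostly higher in code C than in code B. MYC averaged 1.20 CPM per kb in code C and 1.21 in code B, and MYCN averaged 1.90 and 1.53. Whether the targets followed the level of either gene was not tested. LDHA, a lactate dehydrogenase subunit, gave -0.94 for code B against code A (adjusted p = 0.000108) and -0.21 for code C against code A (0.156). HSPE1, a mitochondrial chaperonin, gave -0.74 for code B against code A (0.00647) and 0.70 for code C against code A (0.00779). RRP12, a ribosome assembly factor, was lower than code A in both, by fold changes of -0.84 in code C (4.97e-05) and -0.32 in code B (0.0124).

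Of the 9 MYC-repressed targets, 5 were higher and 0 lower in code C than in code B (median 0.34). Of all genes, 26.9% were called higher and 27.8% lower there. Compared with code A, 5 of the 9 were higher and 0 lower in code C (median 0.32), against 16.1% and 17.1% of all genes. In code B, 4 were higher and 0 lower than in code A (median 0.19), against 11.5% and 15.5% of all genes. TXNIP, an inhibitor of glucose uptake that MLX with MLXIP activates, was at 0.89 in code C (adjusted p = 1.91e-05) and 0.61 in code B (0.000222). CDKN1B, the cell cycle inhibitor p27, was at 0.63 in code C (0.000401) and 0.19 in code B (0.122, not called), and NDRG1 was at 0.48 in code C (0.00343) and 0.59 in code B (0.00114). No activated or repressed target was called in any comparison of a compound with Control.

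**Figure D5:**
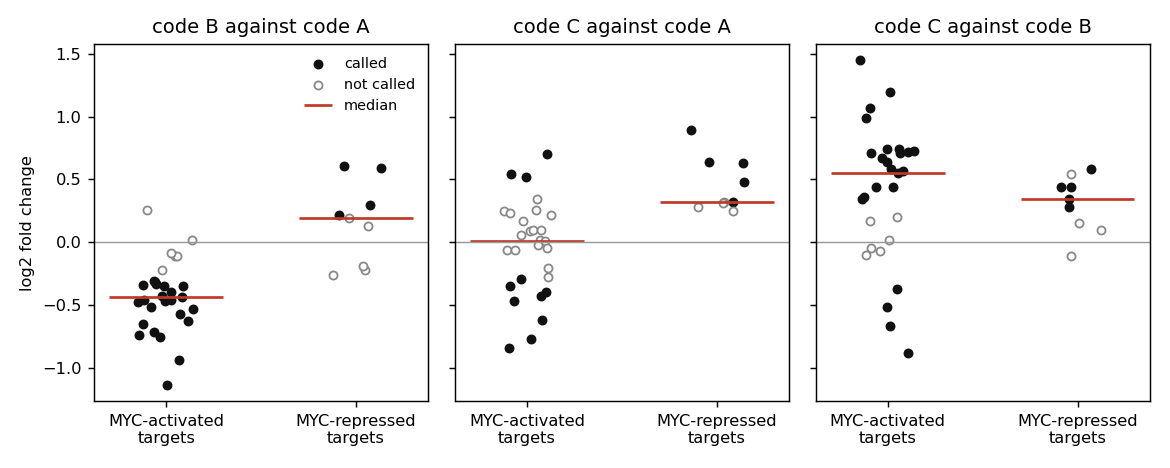
Log2 fold changes of 29 MYC-activated and 9 MYC-repressed targets in the 3 comparisons of library codes, 1 point per gene (filled where called) with a bar at the median. The activated targets centre on -0.44 for code B against code A and on 0.01 for code C against code A, and the repressed targets centre above 0 in all 3 panels.

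Of the remaining proteins of the network, MLXIP, the glucose-sensing partner of MLX, gave -0.88 for code C against code B, -0.46 for code C against code A and 0.42 for code B against code A, all called, and MGA, a MAX partner found in a polycomb complex, gave -0.78, -0.40 and 0.38, all called. Both thus ran in the direction of MNT. MLXIPL, at means of 0.990 to 3.69 CPM by code, gave -1.18 and -1.80, both called, and -0.62, not called. For code B against code A its sign was opposite to that of MNT. Of 14 cofactors, 4 were higher and 5 lower in code C than in code B (median -0.06), shares close to the 26.9% and 27.8% of all genes, among them HDAC2 (0.75), a histone deacetylase of the SIN3 complex, and EP400 (-1.15), a chromatin remodeller. Of 12 genes for MYC protein turnover, 5 were higher and 2 lower in the same comparison (median 0.01), so that 7 of 12 were called where 54.8% of all genes were, with AURKA, a kinase that stabilizes MYCN protein, at 0.96 and the ubiquitin ligase HUWE1 at -1.29.

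Some network genes varied together over the 18 libraries, which share codes and Controls. Pearson's r of log2 CPM was 0.97 between MXD3 and MLX, -0.95 between MXD3 and MNT, -0.93 between MNT and MLX, and 0.87 between MXD1 and MXI1. Such values were not particular to the network. Genes outside it gave 0.992 for MXD3 (WDR83), 0.989 for MLX (CFAP298), 0.988 for MNT (PHF8), 0.983 for MXI1 (ISOC1) and 0.973 for MXD1 (STRADB). Neighbours that share exon bases gave 0.96 for MLX (PSMC3IP), 0.97 for MNT (AC006435.1), and 0.92 and 0.89 for MXD3 (RAB24 and PRELID1). MYC stood apart, with r from -0.30 (MXI1) to 0.49 (MYCN). Among 10986 genes of at least 10 CPM, those most like MYC were CPLX2 (r = 0.945), MCM2 (0.910), ARHGAP36 (0.905), MTHFD1 (0.902) and MAB21L2 (0.896). With the mean of each code subtracted, none of these was among the first 5, which were GDE1 (0.862), POT1 (0.776), GTPBP8 (0.762), TSPAN2 (0.743) and YIPF4 (0.736). For MYCN they were RFC3 (0.785), DSCC1 (0.780), TMEFF1 (0.757), GPR1 (0.750) and MARC1 (0.749), and after subtraction UNC50 (0.753), CEP57 (0.729), TMEM68 (0.726), ZNF680 (0.705) and CRNDE (0.703). These values describe these libraries and carry no test.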

How the data were processed

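RNA of 18 libraries was extracted with TRIzol, treated with DNase I and sequenced without strand information as 150 bp paired reads, per the labels' protocols. The deposited values are raw read counts per Ensembl gene. FastQC, HISAT2, featureCounts, DESeq2 and GRCh38 (hg38) are named in the submitters' processing notes, and versions and settings are not stated there. All gene IDs matched GENCODE 29, which gave symbols, positions and exon lengths.

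Counts were tested with edgeR 4.0.16 (R 4.3.3): filterByExpr with a minimum count of 10, TMM scaling, the robust quasi-likelihood test on all 18 libraries, two-sided p adjusted by Benjamini-Hochberg over 23231 genes, threshold 0.05. Treatments were fitted as 1 mean per group, codes with the group as a covariate. Code A stands for 0409 (10409 and 20409 of TRV130 were read as 0409), B for 1109 and C for 14.04. Levels per length are CPM per kb of merged exon, with 0.01 added before logs and a log2 CPM prior count of 2. Within-code differences used log2(CPM + 0.1). Of other lists, up to 3 genes with the smallest p over the codes were named, and some genes that met this rule are not reported here. The genes, lists and tests were chosen with earlier results of these data known. Replicate numbers are only in part a pairing: same-numbered libraries deviated together for every number only in beta-endorphin and naloxone with Control. The scripts were tested on simulated data. Alternatives were DESeq2 1.42.0, RLE factors, no filter, blocks by replicate number or code, other samples or lengths, and each library left out. No column was left unused.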

Additional observations from a re-analysis of the deposited data

Results flagged for a closer look

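Outlying libraries within a code were found in 4 of the 30 combinations of network gene and code examined, and chance alone gives about 1 in 20. Metamorphine 2 had 5.46 CPM of MYC, the highest of code B, where the next library had 3.61 and the lowest 2.90. Control 1 had 18.1 CPM of MXD1, the lowest of code A, where the next library had 24.8, and 41.5 CPM of MXI1, also the lowest of code A, where the next had 49.6. Metamorphine 3 had 91.5 CPM of MXI1, the highest of code C, where the next library had 78.4.

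For MYCN, all 4 compound libraries of code C lay below their Control library (median log2 difference -0.20), while all 5 of code B (0.46) and all 6 of code A (0.21) lay above theirs. The difference between codes was not tested, and each code has a single Control library.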

How the results depend on the processing

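No network gene was called for a treatment under any alternative, including the replicate block, under which MYC and MYCN stood at 0.24 and 0.13 for the mean of the 5 compounds. With the replicate number as a block, no call changed and 15 of 18 libraries were most like one of their own number. All-gene counts for that mean were 0 in the edgeR fit reported, 12 with DESeq2, 1 with the library code block, 3270 with no low-count filter and 366 without Control replicate 3; DESeq2 also called 9 for any difference among groups and 1 each for TRV130, beta-endorphin and naloxone. The direction of MYCN minus MYC turned to -0.25 with the longest transcript and -0.11 with no length, and members called in code B against code A were 1 without TRV130, 1 without Control 1, Naloxone 1 and Naloxone 2, and 2 to 6 with 1 library left out, against 5. All-gene calls in that comparison were then 1862, 1881 and 2520 (without TRV130 replicate 3), 3325 without Control replicate 2 and 4038 without Naloxone replicate 2, against 6256; code C against code A had 4724 without the 3 libraries and 4819 without Naloxone replicate 3, against 7709.

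Signs of uncalled values turned as follows, and the cause was not tested. With the code block, MYC for TRV130 was -0.08, and -0.20 without Control 1 or the 3 libraries, where MYC for beta-endorphin was -0.08 and -0.07; MYCN for naloxone was -0.02 without Control 1. MXD4 for the mean of compounds was -0.01 with DESeq2 or RLE factors, and MNT -0.06 without the 3 libraries. Between codes, MYC in C against B was 0.03 with no filter, MYCN in C against A -0.05 without the 3 libraries and -0.01 with code alone, MYCL in C against B -0.02 and in C against A 0.05 under the same 2 settings, and MXD4 in B against A 0.01 without TRV130. Leaving out 1 library at a time, ranges that crossed 0 were, for MYC, -0.45 to 0.65 for morphine, -0.05 to 0.86 for metamorphine, -0.44 to 0.47 for beta-endorphin, -0.35 to 0.61 for naloxone and -0.08 to 0.12 in C against B; for MYCN, -0.11 to 0.34 for metamorphine, -0.06 to 0.38 for TRV130, -0.08 to 0.36 for beta-endorphin, -0.17 to 0.27 for naloxone, -0.08 to 0.36 for the mean and -0.11 to 0.12 in C against A; and -0.22 to 0.10 for MYCL in C against A, -0.05 to 0.09 for MXD4 and -0.06 to 0.49 for MXI1 for the mean. MYC and MYCN rest on 69 to 307 reads per library and MYCL on 17 to 61, which limits what 3 libraries a group can resolve.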
